A study of Homo sapiens with 8 samples.

Results

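Protein-folding genes are described here in MDA-MB-231 cells, an established triple-negative human breast cancer line. The 40 genes were chosen by name, from a list of endoplasmic reticulum (ER) chaperones and unfolded protein response genes beside cytosolic and mitochondrial heat shock genes, out of 61228 genes in the deposited table. Of these, 39 passed a filter on low counts and were tested. The small heat shock protein gene CRYAB missed it, with 0 counts in 6 of the 8 libraries and 1 and 4 counts in the knockout monolayers.

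Messenger RNA was sequenced in 8 libraries, in 4 groups of 2. Control monolayers came from cells whose label names a control sgRNA, and control gels from cells whose label names Cas9 with a control sgRNA. Knockout monolayers and knockout gels came from cells nucleofected with Cas9 and sgRNAs against ETV1, ETV4 and ETV5, which encode the PEA3 transcription factors of the ETS family. Monolayers grew on plastic and gels in collagen I, at 2.4 mg/ml or 1.2 mg/ml, with no label saying which sample had which. It was not given in the sources used here if the control monolayers also received Cas9, if the edited cells were a clone or a pool, or if replicate libraries were grown as independent cultures. P-values thus reflect spread among these libraries alone, which may be technical. Gels were digested with collagenase at 300 U/ml and 37 °C for 10 and then 5 min, pipetted, washed and frozen as pellets, while monolayers were lysed on the plate, so culture and harvest cannot be told apart in any comparison of gels with monolayers.

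Libraries held 15824504 to 23896899 counts, and the 40 genes took 1.62 to 1.83% of them. The targeted genes ETV1 and ETV4 were lower in knockout than in control cells (in monolayers by log2 -0.50 and -0.45, adjusted p = 3.75e-09 and 9.94e-07; in gels by -0.66 and -0.57, adjusted p = 3.1e-12 and 3.61e-09). ETV5 transcript differed by 0.04 and 0.02 (adjusted p = 0.718 and 0.808). Where the guides cut was not used here, and a transcript level does not show how much protein remained. VIM, the intermediate filament of this mesenchymal-like line, stood at 5284 to 7407 CPM (counts scaled to a fixed library size), while the hormone receptor genes ESR1 and PGR did not exceed 0.0805 CPM. The other markers listed as low or absent in the line were mixed. CDH1 did not exceed 0.3818 CPM, but ERBB2 was at 56.39 to 69.43, EPCAM at 12.93 to 23.01 and GATA3 at 7.527 to 12.69 CPM.

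Chaperones are proteins that bind unfolded or partly folded proteins and release them as they fold. In the ER, misfolded protein activates the sensors ERN1 (IRE1), ATF6 and PERK, and the resulting unfolded protein response (UPR) raises transcription of ER chaperones and of genes that carry misfolded proteins back out for degradation. In the cytosol, the transcription factor HSF1 raises heat shock genes, whose HSP70 and HSP90 products work with J proteins, nucleotide exchange factors and other cochaperones.

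Both responses act through known promoter motifs, so the promoter letters are described before the changes. RefSeq windows (GRCh38.p14) from 250 bases before to 50 bases after a transcript's start were held for 36 of the 40 genes. The motifs were searched on both strands after the expression values had been seen. The ER stress element (CCAAT, then any 9 bases, then CCACG) was found for HSPA5, HSP90B1, CRELD2, CALR, CANX, PDIA6 and XBP1, and in 0.077% of all 35116 windows. ER stress element II (ATTGG, then any 1 base, then CCACG) was found for HYOU1, SDF2L1 and HERPUD1, and in 0.054% of windows. A heat shock element (GAA, then any 2 bases, then TTC, then any 2 bases, then GAA) was found for SERPINH1, HSPA8, DNAJA1, HSP90AA1, HSP90AB1 and HSPD1, and in 0.49% of windows. The UPR element TGACGTG was found for HYOU1 and HSP90AB1, against 1.97% of windows, and in HYOU1 1 copy overlapped the ER stress element II. The ETS core CCGGAAGT, a motif of the family to which the targeted factors belong, was found for DNAJB9, SYVN1 and DNAJA1, against 4.14% of windows. A match is a description of the letters and not evidence that a factor binds there.

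Stretches from ER promoters are shown first, because these genes carry the same kinds of element and moved in different directions below. Capitals mark the ER stress element in the promoters of HSPA5 at chr9:125241361-125241439 (minus strand) and HSP90B1 at chr12:103930291-103930369 (plus strand), and ER stress element II in those of HYOU1 at chr11:119057244-119057314 (minus strand) and HERPUD1 at chr16:56931995-56932065 (plus strand). Each is written 5′ to 3′ on the gene's strand, so an element on the other strand appears as its reverse complement.
HSPA5: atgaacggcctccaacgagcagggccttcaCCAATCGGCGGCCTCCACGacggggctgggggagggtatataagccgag
HSP90B1: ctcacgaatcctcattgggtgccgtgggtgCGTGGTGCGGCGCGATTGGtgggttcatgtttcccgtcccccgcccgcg
HYOU1: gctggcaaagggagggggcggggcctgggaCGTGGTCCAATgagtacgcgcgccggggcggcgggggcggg
HERPUD1: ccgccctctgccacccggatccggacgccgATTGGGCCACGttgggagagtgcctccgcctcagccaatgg

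Of the promoters that hold the heat shock element, those below are shown because their genes were all higher in knockout than in control gels. Capitals mark the heat shock element in HSPA8 at chr11:123062149-123062221 (minus strand), HSP90AA1 at chr14:102087090-102087162 (minus strand), HSP90AB1 at chr6:44247801-44247873 (plus strand), HSPD1 at chr2:197500038-197500090 (minus strand) and SERPINH1 at chr11:75562147-75562219 (plus strand). In HSPD1 the capitals cover 2 overlapping matches.
HSPA8: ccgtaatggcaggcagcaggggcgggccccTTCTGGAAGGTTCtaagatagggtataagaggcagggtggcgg
HSP90AA1: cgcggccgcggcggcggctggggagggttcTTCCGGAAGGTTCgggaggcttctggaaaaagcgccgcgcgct
HSP90AB1: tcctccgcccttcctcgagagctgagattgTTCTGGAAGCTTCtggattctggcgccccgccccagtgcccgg
HSPD1: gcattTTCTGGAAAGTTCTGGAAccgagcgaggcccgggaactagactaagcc
SERPINH1: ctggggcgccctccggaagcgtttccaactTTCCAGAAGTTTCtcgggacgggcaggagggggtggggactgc

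All 39 tested genes moved within a narrow range. The mean of a gene's highest group divided by that of its lowest group ran from 1.04 to 1.63, with a median of 1.21 and the widest span in the inducible HSP70 gene HSPA1A. Replicate libraries differed by a median of 2.77 to 4.12% of the gene's mean in the 4 groups, and by up to 17.7%. Knockout gels had the highest mean for 21 of the 39 genes, and control monolayers had the lowest mean for 21. The same counts were not made over all tested genes, so they do not set these genes apart from others. Together the heat shock genes took 0.945 to 0.953% of counts in control monolayers, 1.003 to 1.005% in knockout monolayers, 0.946 to 0.968% in control gels and 1.08 to 1.13% in knockout gels, where the knockout libraries lay above the controls in each culture. The 22 ER genes took 0.687 to 0.692%, 0.686 to 0.706%, 0.649 to 0.651% and 0.652 to 0.680% in the same order. On these shares of raw totals, both gel groups lay below both monolayer groups. The scaling factors behind the CPM values also differed by culture, at 1.02 to 1.041 in monolayers and 0.9701 to 0.9782 in gels. With them, the median log2 fold change of the ER genes from monolayers to gels was 0.068 in control and 0.012 in knockout cells. The raw shares thus do not show a fall of ER genes in gels.

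**Figure D1:**
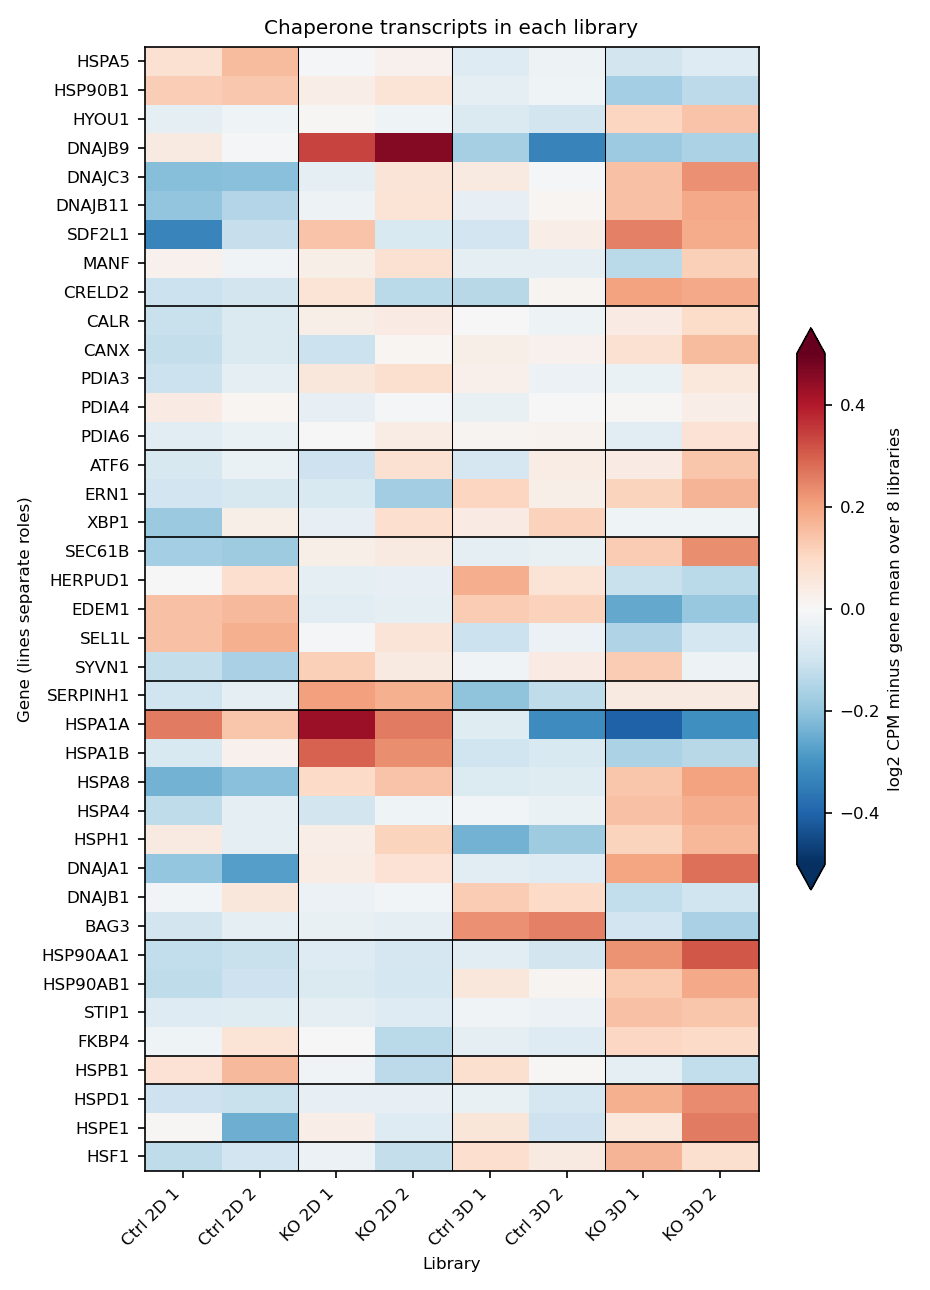
Heat map of the tested genes (rows, grouped by role) in the 8 libraries (columns), coloured by log2 CPM minus the gene's mean over all libraries. HSP90AA1, HSPD1 and DNAJA1 are among the genes highest in the knockout gels, while HSPA1A, HSPA1B and DNAJB9 are highest in the knockout monolayers.

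Among the genes that passed in monolayers, the constitutive HSP70 gene HSPA8, its J-protein partner DNAJA1, the inducible HSP70 gene HSPA1B, the ER J-protein gene DNAJB9 and the collagen chaperone gene SERPINH1 rose most in knockout cells, by log2 0.26 to 0.38. EDEM1, which takes glycoproteins to degradation, and the small heat shock gene HSPB1 fell. Of the 39 genes 11 were higher and 2 lower at an adjusted p under 0.05 (edgeR's quasi-likelihood test with Benjamini-Hochberg adjustment over all 15568 tested genes), against 9.60% of all tested genes higher and 9.60% lower. The 2 knockout libraries lay above both controls for 19 genes and below both for 7, against 30.2% and 26.7% of all tested genes. The median log2 fold change was 0.05, beside 0.01 for all tested genes. The count of higher genes was 5 without control library 1, and 7 and 6 when knockout libraries 1 and 2 were left out, and the count of lower genes was between 1 and 4 when any 1 of the 8 libraries was left out.

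In gels, the HSP90 genes and their cochaperones, the mitochondrial chaperonin gene HSPD1 and the HSP110 gene HSPH1 were among the genes that rose in knockout cells, while the HSP70 cochaperone gene BAG3, EDEM1, HERPUD1 and the J-protein gene DNAJB1 fell. There were 14 higher and 5 lower genes of 39, against 11.5% and 12.4% of all tested genes. Groups did not overlap for 21 genes with the knockout higher and 9 with it lower, against 30.9% and 30.7%. The median log2 fold change was 0.08, beside -0.001 for all tested genes. Heat shock genes, which are 16 of the 39 tested, made up 9 of the 14 and 2 of the 5. The count of higher genes was 7 and 8 when control libraries 1 and 2 were left out and 8 without knockout library 2, and that of lower genes was 3 without control library 1.

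Monolayers and gels share no library in these comparisons. The 11 genes higher in knockout monolayers and the 14 higher in knockout gels had 6 in common, namely DNAJC3, DNAJB11, SEC61B, SERPINH1, HSPA8 and DNAJA1, and EDEM1 was lower in both. No gene was called in opposite directions. How many of all tested genes were called in both cultures was not counted, so this overlap has no background to be set against. A further 6 genes passed in monolayers alone and 12 in gels alone, which does not by itself show a difference between cultures. The test of that difference is given further on.

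**Figure D2:**
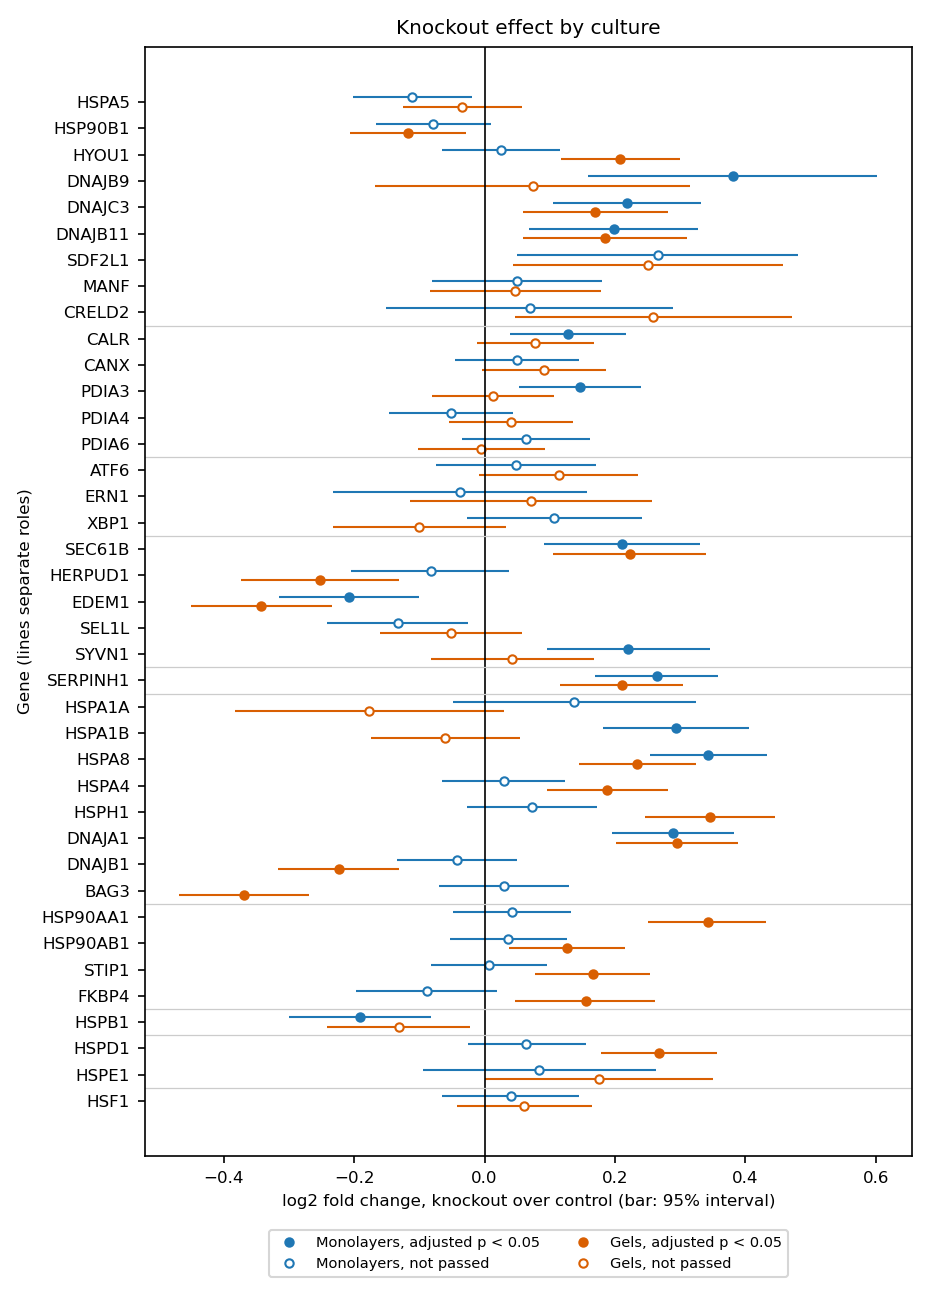
Knockout minus control log2 fold change of each tested gene in monolayers and in gels, with 95% intervals, on a log2 axis. Filled points mark an adjusted p under 0.05, 13 in monolayers and 19 in gels, and all 4 genes of the HSP90 group are filled on the right of 0 in gels and open in monolayers.

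Culture comparisons gave mixed directions. Among the genes that passed in control cells, BAG3 and DNAJC3 had the largest rises in gels and HSPA1A and SEL1L the largest falls. Of the 39 genes 6 were higher and 5 lower in control gels than in control monolayers, against 16.0% and 10.7% of all tested genes. In knockout cells 13 were higher and 7 lower in gels, against 20.1% and 17.9%, the calls being led upward by HSP90AA1 and ERN1 and downward by HSPA1A, DNAJB9 and HSPA1B. Gel and monolayer libraries did not overlap, with gels higher and lower, for 21 and 12 genes in control cells (34.9% and 29.5% of all tested genes) and for 19 and 12 in knockout cells (34.0% and 33.6%). The median log2 fold changes were 0.06 and 0.05, beside 0.01 and -0.01 for all tested genes. Scaling by upper quartiles gave 3 higher and 7 lower genes in control cells and 7 higher and 10 lower in knockout cells, so the balance between the directions turned with the scaling.

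Libraries also moved these counts. In control cells they fell to 1 higher and 1 lower without control gel library 1, and the higher count was 3 without control monolayer library 1. In knockout cells the higher count was 6 without knockout gel library 2 and the lower count 4 without knockout gel library 1. Beside these differences, the summed level of 15 immediate-early and dissociation-response genes was 1350 CPM in both control monolayers, 1380 to 1420 in knockout monolayers, 3390 to 3500 in control gels and 3410 to 3600 in knockout gels. Its part in the gel results was not tested. For the control cells, the difference in Cas9 between the labels cannot be told apart from culture either, and it also enters the knockout comparison in monolayers.

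**Figure D3:**
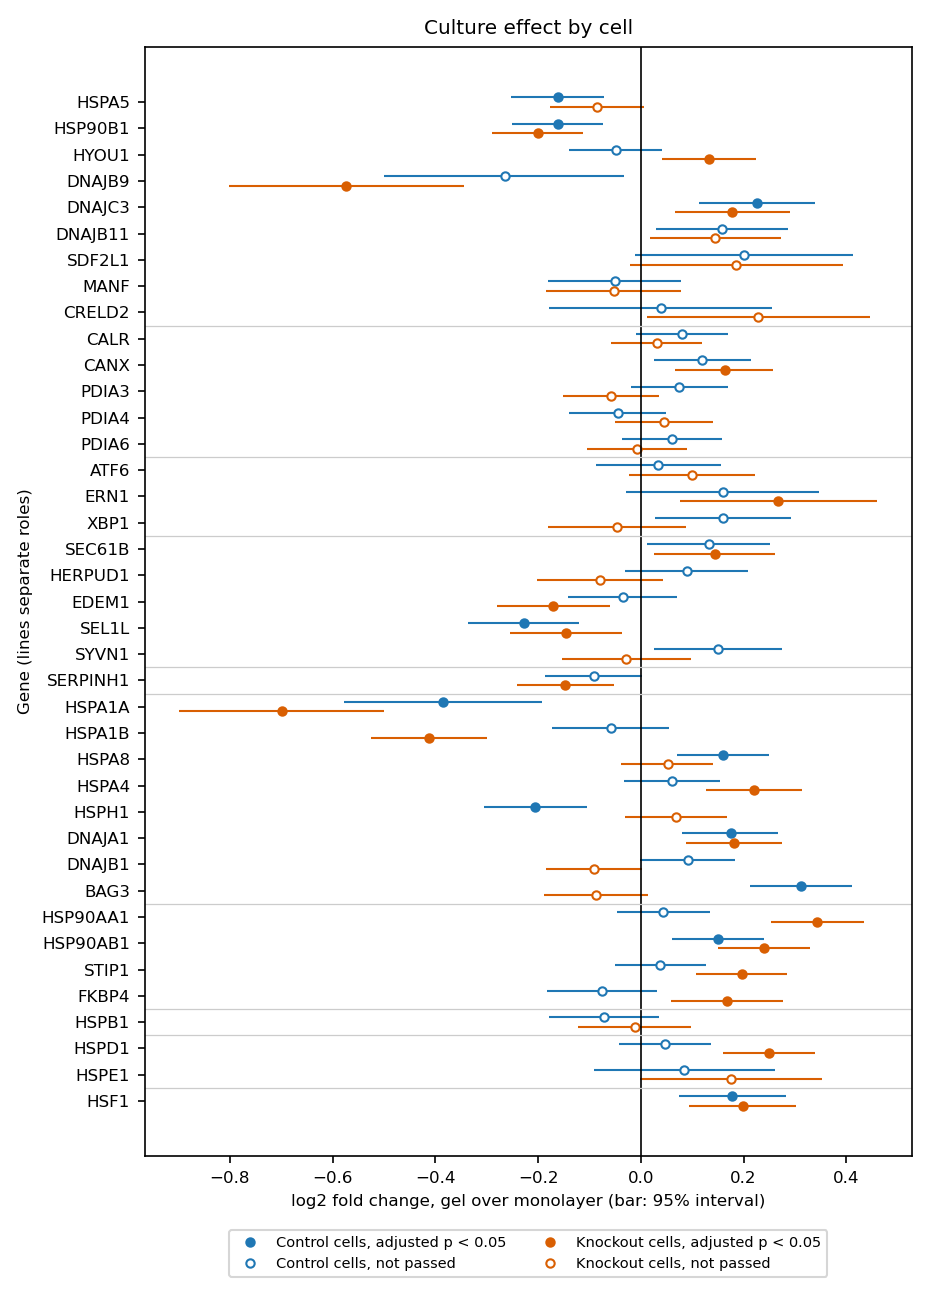
Gel minus monolayer log2 fold change of each tested gene in control and in knockout cells, with 95% intervals, on a log2 axis. Filled points mark an adjusted p under 0.05, 11 in control and 20 in knockout cells, and HSPA1A lies farthest to the left in both.

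Abundance per length spanned a wide range. In control monolayers the cytosolic HSP90AB1 stood highest at 907 CPM per kilobase of exon, followed by the lectin chaperone gene CALR at 557, HSP90AA1 at 468, HSPA8 at 276 and HSPA5 at 273. The sensor gene ERN1 was lowest of the tested genes at 1.62 CPM per kilobase. All other levels below are CPM, which compare libraries for 1 gene and not genes with each other, and all changes are log2 fold changes with their standard errors (SE).

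The ER HSP70 system is built around HSPA5 (BiP), the main luminal HSP70. HSPA5 stood at 1035 and 1096 CPM in control monolayers, 976 and 997 in knockout monolayers, 940 and 964 in control gels and 921 and 939 in knockout gels. Every library of gels lay below every monolayer library. The gene fell by 0.16 ± 0.0446 in control gels (adjusted p = 0.00638), a call lost without control gel library 1 (adjusted p = 0.131) or control monolayer library 2 (adjusted p = 0.0699), and was at -0.11 in knockout against control monolayers (adjusted p = 0.079).

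HSP90B1 (GRP94), the ER member of the HSP90 family, had the same order. Its levels were 1063 and 1072 CPM in control monolayers, 998 and 1024 in knockout monolayers, 946 and 962 in control gels and 868 and 891 in knockout gels. No group overlapped another. It fell in gels by 0.16 in control cells (adjusted p = 0.00525) and by 0.20 in knockout cells (adjusted p = 0.000416). The first call was lost without control gel library 1 (adjusted p = 0.106), while the second held in all 15 alternatives. In knockout gels it was lower than in control gels by -0.12 (adjusted p = 0.048), a call lost in 9 of 15 alternatives, including when any 1 of the 4 gel libraries was left out (adjusted p = 0.0973 to 0.339).

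HYOU1 (GRP170), the exchange factor that recharges HSPA5, moved the other way. It stood at 288 and 293 CPM in control monolayers, 298 and 293 in knockout monolayers, 282 and 279 in control gels and 320.3 and 328 in knockout gels, where it lay above all 6 other libraries. The rise over control gels was 0.21 ± 0.0447 (adjusted p = 0.00063) and held in all 15 alternatives. Against knockout monolayers it rose by 0.13 (adjusted p = 0.0178). That call was lost with upper-quartile scaling and without knockout monolayer library 2 or knockout gel library 2.

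J proteins deliver clients to HSPA5, and 3 of them were among the genes studied. DNAJB9 (ERdj4), which also acts on the sensor IRE1, was at 12.6 and 12.1 CPM in control monolayers, 15.4 and 16.7 in knockout monolayers, 10.8 and 9.66 in control gels and 10.7 and 10.9 in knockout gels. The knockout monolayers stood above every other library. It rose by 0.38 ± 0.109 in knockout monolayers (adjusted p = 0.0114), lost without either control monolayer library (adjusted p = 0.0636 and 0.0575) or knockout library 2 (adjusted p = 0.131) and with DESeq2's Wald test (adjusted p = 0.106). With the knockout in gels it differed by 0.07 (adjusted p = 0.706). Between knockout cultures it fell by 0.57 ± 0.113 in gels (adjusted p = 0.000123), in all 15 alternatives.

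DNAJC3 (p58IPK) and DNAJB11 (ERdj3) rose with the knockout in both cultures. DNAJC3 was at 92.2 and 92.5 CPM in control monolayers, 103 and 112 in knockout monolayers, 110 and 106 in control gels and 118 and 125 in knockout gels. Its rises were 0.22 with the knockout in monolayers (adjusted p = 0.00453), 0.17 with the knockout in gels (adjusted p = 0.021), 0.23 with gels in control cells (adjusted p = 0.00227) and 0.18 with gels in knockout cells (adjusted p = 0.0104). Each was lost without 1 or more single libraries, and both calls in knockout gels without knockout gel library 2. The rise with gels in knockout cells was also lost with upper-quartile scaling. DNAJB11 was at 52.1 and 54.0 CPM in control monolayers, 58.8 and 62.7 in knockout monolayers, 58.1 and 60.1 in control gels and 66.2 and 68.1 in knockout gels. It rose by 0.20 in monolayers (adjusted p = 0.0251) and by 0.19 in gels (adjusted p = 0.0273). Both calls were lost with DESeq2's Wald test. The monolayer call was also lost without the low-count filter and in a fit of the compared groups alone. Leaving out control library 1 or knockout library 2 removed it too. The gel call was also lost without either control library or knockout library 2.

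SDF2L1, MANF and CRELD2, small ER proteins known as UPR targets, passed in no comparison. SDF2L1 ranged from 13.6 to 20.3 CPM and CRELD2 from 13.3 to 16.8 CPM over the 8 libraries, and MANF from 77.5 to 92.5 CPM. The knockout gels held both extremes of MANF, the lowest in knockout gel library 1 and the highest in knockout gel library 2.

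Lectin chaperones and disulfide isomerases fold glycoproteins and form their disulfide bonds. CALR, the soluble lectin chaperone, stood at 1494 and 1532 CPM in control monolayers, 1647 and 1658 in knockout monolayers, 1614 and 1585 in control gels and 1658 and 1719 in knockout gels. Control monolayers lay below the rest. It rose by 0.13 in knockout monolayers (adjusted p = 0.0366), a call lost in 10 of 15 alternatives, with an adjusted p of up to 0.473. PDIA3 (ERp57), the isomerase that works with both lectins, stood at 305 and 318 CPM in control monolayers, 342 and 347 in knockout monolayers, 334 and 322 in control gels and 321 and 341 in knockout gels. It rose by 0.15 in knockout monolayers (adjusted p = 0.0229). That call was lost without the low-count filter and in a fit of the compared groups alone. It was also lost without control library 1 or either knockout library. CANX, the membrane-bound lectin, rose by 0.16 in knockout gels over knockout monolayers (1225 and 1298 against 1081 and 1173 CPM, adjusted p = 0.00602). That call was lost with upper-quartile scaling and without knockout monolayer library 1 or knockout gel library 2. PDIA4 stayed within 197 to 208 CPM and PDIA6 within 234 to 256 CPM, and neither passed in any comparison.

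UPR sensors and XBP1, the factor that IRE1 activates by splicing, were mostly below the threshold. ATF6 ranged from 95.1 to 112 CPM and XBP1 from 64.0 to 78.8 CPM, with no call. ERN1 was at 17.6 and 17.8 CPM in control monolayers, 17.8 and 16.6 in knockout monolayers, 20.2 and 19.1 in control gels and 20.3 and 21.1 in knockout gels. Gels lay above monolayers, and the gene rose by 0.27 ± 0.0946 in knockout cells (adjusted p = 0.0238). That call was lost with upper-quartile scaling, with DESeq2's Wald test and without knockout monolayer library 2 or knockout gel library 2. Gene counts do not separate spliced from unspliced XBP1.

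Translocation and ER-associated degradation genes, which bring proteins into the ER and return misfolded ones to the cytosol, gave calls in both directions. SEC61B, a subunit of the channel through which proteins enter the ER, was at 68.4 and 68.2 CPM in control monolayers, 78.7 and 79.5 in knockout monolayers, 74.6 and 75.1 in control gels and 84.2 and 90.5 in knockout gels. Knockout libraries lay above the controls in both cultures. It rose by 0.21 in monolayers (adjusted p = 0.00949) and by 0.22 in gels (adjusted p = 0.00416). The monolayer call was lost without control library 1, knockout library 1 or knockout library 2 (adjusted p = 0.0837, 0.0598 and 0.0564), and the gel call without control library 1 or knockout library 2 (adjusted p = 0.0566 and 0.119). Its rise of 0.14 from knockout monolayers to knockout gels (adjusted p = 0.0482) was lost in 11 of 15 alternatives, with an adjusted p of up to 0.391.

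EDEM1, a lectin-like protein that extracts misfolded glycoproteins from the folding cycle, was lower with the knockout in both cultures. It stood at 115 and 116 CPM in control monolayers, 100.2 and 100.5 in knockout monolayers, 114 and 113 in control gels and 87.0 and 91.3 in knockout gels. No knockout library overlapped a control. It fell by 0.21 ± 0.053 in monolayers (adjusted p = 0.00451) and by 0.34 ± 0.0534 in gels (adjusted p = 7.15e-06), both in all 15 alternatives. From knockout monolayers to knockout gels it fell by 0.17 (adjusted p = 0.0127). That call was lost with a correction for exon length and GC content and without knockout monolayer library 1 or knockout gel library 1.

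HERPUD1, SYVN1 and SEL1L belong to the ubiquitin ligase complex of the ER membrane. HERPUD1, an adaptor of the complex, was at 77.3 and 82.0 CPM in control monolayers, 74.8 and 75.3 in knockout monolayers, 87.8 and 81.1 in control gels and 71.5 and 70.4 in knockout gels. It fell by 0.25 ± 0.0594 in knockout gels (adjusted p = 0.00166, or 0.0981 without control gel library 1). SYVN1 (HRD1), the ligase itself, was at 69.2 and 67.1 CPM in control monolayers, 81.5 and 77.4 in knockout monolayers, 74.1 and 77.2 in control gels and 82.1 and 73.8 in knockout gels. It rose by 0.22 in knockout monolayers (adjusted p = 0.00988, or 0.0645 without control library 2 and 0.147 without knockout library 1), and its exons share 398 bases with FAU, a ribosomal protein gene on the same strand. SEL1L, which stabilises the ligase, was at 130.2 and 133 CPM in control monolayers, 117 and 123 in knockout monolayers, 109 and 116 in control gels and 106 and 111 in knockout gels. It fell by 0.23 with gels in control cells (adjusted p = 0.00133) and by 0.15 in knockout cells (adjusted p = 0.0308). The first call was lost without control gel library 1. The second was lost in 6 of 15 alternatives, among them DESeq2's Wald test and the fit without the low-count filter. Leaving out knockout monolayer library 2 or knockout gel library 1 also removed it.

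SERPINH1 (HSP47), the ER chaperone of procollagen, is raised by heat shock. It stood at 247 and 257 CPM in control monolayers, 306 and 299.5 in knockout monolayers, 230.2 and 242 in control gels and 273 and 273 in knockout gels. Knockout libraries lay above the controls in both cultures. It rose by 0.26 ± 0.0462 in monolayers (adjusted p = 5.63e-05), in all 15 alternatives, and by 0.21 ± 0.0464 in gels (adjusted p = 0.000869, or 0.0626 without control gel library 1). Between knockout cultures it was lower in gels by -0.15 (adjusted p = 0.0113), but at 0.03 with a correction for exon length and GC content (adjusted p = 0.692). That call was also lost without knockout monolayer library 1 (adjusted p = 0.116), knockout gel library 1 (adjusted p = 0.0728) or knockout gel library 2 (adjusted p = 0.0571).

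HSPA8 (HSC70), the abundant constitutive HSP70 of the cytosol, stood at 1324 and 1350 CPM in control monolayers, 1667 and 1723 in knockout monolayers, 1490 and 1497 in control gels and 1720 and 1794 in knockout gels. No knockout library overlapped a control in either culture. The gene rose by 0.34 ± 0.0443 in monolayers (adjusted p = 3.17e-07) and by 0.23 ± 0.0442 in gels (adjusted p = 0.000127), both in all 15 alternatives. In control gels it rose by 0.16 over control monolayers (adjusted p = 0.00648). That call was lost with upper-quartile scaling and without control monolayer library 1 or either control gel library.

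DNAJA1, a J protein that hands clients to HSPA8, rose in all 4 pairwise comparisons. It was at 319 and 301 CPM in control monolayers, 374 and 383 in knockout monolayers, 352 and 348 in control gels and 418 and 441 in knockout gels, with no overlap between groups. It was higher in knockout than in control cells by 0.29 ± 0.0461 in monolayers (adjusted p = 1.32e-05) and by 0.30 ± 0.0457 in gels (adjusted p = 6.51e-06), in all 15 alternatives. Gel libraries exceeded monolayer libraries by 0.18 in each genotype (adjusted p = 0.00439 in control and 0.00189 in knockout cells). Those 2 calls were lost without control gel library 1 (adjusted p = 0.0647) and without knockout gel library 2 (adjusted p = 0.0672).

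HSPA1A and HSPA1B, the stress-inducible HSP70 genes, lie side by side on chromosome 6 (31815464 to 31817946 and 31827735 to 31830255, GRCh38, plus strand). They encode nearly identical proteins, so how reads were divided between them is uncertain. HSPA1A was at 25.4 and 23.3 CPM in control monolayers, 28.5 and 25.4 in knockout monolayers, 20.3 and 17.0 in control gels and 16.0 and 17.1 in knockout gels. HSPA1B was at 89.1 and 95.5 CPM in control monolayers, 115 and 110.4 in knockout monolayers, 87.8 and 89.2 in control gels and 84.2 and 85.5 in knockout gels. Added together, which removes the division of reads between the copies but not the loss of reads counted for neither, they stood at 114 and 119 CPM, 144 and 136 CPM, 108 and 106 CPM, and 100.2 and 103 CPM in that order of groups. The sum was thus highest in both knockout monolayers and lowest in both knockout gels.

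HSPA1B rose by 0.29 ± 0.0552 in knockout monolayers (adjusted p = 0.000159) and differed by -0.06 in knockout gels (adjusted p = 0.486). From knockout monolayers to knockout gels HSPA1A fell by 0.70 ± 0.098 (adjusted p = 7.27e-07) and HSPA1B by 0.41 ± 0.0559 (adjusted p = 4.08e-07). These 3 calls held in all 15 alternatives. In control cells HSPA1A fell by 0.39 in gels (adjusted p = 0.00245), lost without control monolayer library 1 (adjusted p = 0.0587) or control gel library 2 (adjusted p = 0.112).

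HSP110 proteins, encoded by HSPH1 and HSPA4, exchange nucleotide on HSP70. HSPH1 was at 227 and 213 CPM in control monolayers, 225 and 238 in knockout monolayers, 187 and 195 in control gels and 238 and 247 in knockout gels. Control gels lay below every other library. HSPH1 was higher in knockout than in control gels by 0.35 ± 0.0491 (adjusted p = 1.42e-06), in all 15 alternatives. It was lower by 0.21 in control gels than in control monolayers (adjusted p = 0.00185), a call lost without control gel library 1. HSPA4 was at 313 and 331 CPM in control monolayers, 320 and 336 in knockout monolayers, 337 and 334 in control gels and 378 and 387 in knockout gels, and only the last group stood clear of the others. It rose by 0.19 over control gels (adjusted p = 0.00233, or 0.0521 without control library 2 and 0.0524 without knockout library 2) and by 0.22 over knockout monolayers (adjusted p = 0.000256), the latter in all 15 alternatives.

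DNAJB1 (HSP40) and BAG3, both inducible helpers of HSP70, fell in knockout gels. DNAJB1 was at 296 and 311 CPM in control monolayers, 292 and 296 in knockout monolayers, 326 and 319 in control gels and 274 and 279 in knockout gels. It fell by 0.22 ± 0.0455 (adjusted p = 0.000314), in all 15 alternatives. BAG3, an exchange factor that also directs clients to autophagy, was at 149 and 154 CPM in control monolayers, 155 and 154 in knockout monolayers, 186 and 189 in control gels and 149 and 142 in knockout gels. Control gels stood alone above the other 3 groups. BAG3 rose by 0.31 ± 0.0486 from control monolayers to control gels (adjusted p = 8.59e-06) and fell by 0.37 ± 0.0489 in knockout against control gels (adjusted p = 3.93e-07), both in all 15 alternatives.

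Cytosolic HSP90 and its cochaperones gave 0 calls in 4 with the knockout in monolayers, by edgeR's adjusted p, by its unadjusted p under 0.05 and by DESeq2. In gels 4 of 4 were higher by edgeR, beside 11.5% of all tested genes, and 3 of 4 by DESeq2, where FKBP4 did not pass (adjusted p = 0.0533). The 4 calls in gels were 1 without control gel library 1. HSP90AA1, the inducible HSP90, was at 2448 and 2470 CPM in control monolayers, 2549 and 2514 in knockout monolayers, 2567 and 2503 in control gels and 3118 and 3306 in knockout gels. It rose in knockout gels by 0.34 ± 0.0446 over control gels (adjusted p = 2.99e-07) and by 0.34 ± 0.0446 over knockout monolayers (adjusted p = 1.91e-07), both in all 15 alternatives. The other 3 groups lay within 2448 to 2567 CPM.

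HSP90AB1, the constitutive HSP90, was at 2678 and 2726 CPM in control monolayers, 2788 and 2754 in knockout monolayers, 3041 and 2954 in control gels and 3206 and 3340 in knockout gels. Gels lay above monolayers in both genotypes. It rose with gels by 0.15 in control cells (adjusted p = 0.0104) and by 0.24 ± 0.0441 in knockout cells (adjusted p = 4.85e-05). The first call was lost with upper-quartile scaling and in a fit of the compared groups alone. It was also lost without control monolayer library 1 or control gel library 1. The second held in all 15 alternatives. In knockout gels HSP90AB1 was higher than in control gels by 0.13 (adjusted p = 0.0324). That call was lost with upper-quartile scaling and without control gel library 1 or 2, knockout gel library 2 or knockout monolayer library 2.

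STIP1 (HOP) links HSP70 to HSP90, and FKBP4 (FKBP52) is an HSP90 cochaperone of steroid receptors. STIP1 was at 383 and 384 CPM in control monolayers, 388 and 383 in knockout monolayers, 395 and 392 in control gels and 443 and 440.4 in knockout gels. It rose by 0.17 over control gels (adjusted p = 0.0046, or 0.0546 and 0.0746 without control libraries 1 and 2) and by 0.20 over knockout monolayers (adjusted p = 0.000519), the latter in all 15 alternatives. FKBP4 was at 134 and 142 CPM in control monolayers, 136 and 124 in knockout monolayers, 132 and 130 in control gels and 146 and 145 in knockout gels. It rose by 0.16 over control gels (adjusted p = 0.0303) and by 0.17 over knockout monolayers (adjusted p = 0.0124). Both calls were lost with upper-quartile scaling and without knockout gel library 2. The first was also lost with DESeq2's Wald test and without either control gel library, and the second without knockout monolayer library 2.

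HSPB1 (HSP27), the small heat shock protein that binds unfolding proteins without ATP, was at 147 and 156 CPM in control monolayers, 138 and 128 in knockout monolayers, 148 and 140.5 in control gels and 135 and 128 in knockout gels. Knockout libraries lay below the controls in both cultures. It fell by 0.19 in monolayers (adjusted p = 0.01, or 0.12 without control library 2 and 0.202 without knockout library 2) and was at -0.13 in gels (adjusted p = 0.0726).

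HSPD1 (HSP60) forms the folding chamber of the mitochondrial matrix and HSPE1 (HSP10) its lid, and the genes share a divergent promoter on chromosome 2. HSPD1 was at 455 and 453 CPM in control monolayers, 475 and 475 in knockout monolayers, 477 and 462 in control gels and 553 and 577 in knockout gels. It rose by 0.27 ± 0.0442 over control gels (adjusted p = 1.83e-05) and by 0.25 ± 0.0443 over knockout monolayers (adjusted p = 2.99e-05), both in all 15 alternatives. HSPE1 was at 37.6 and 31.6 CPM, 38.2 and 35.8, 39.0 and 34.8, and 38.7 and 44.8 in the same order of groups, and passed in no comparison. Its libraries overlapped between groups in all comparisons but that of knockout gels with knockout monolayers, and its change of 0.18 in knockout gels had an SE of 0.0851 against 0.0442 for HSPD1.

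HSF1, the factor that binds heat shock elements, rose with gels in both genotypes. It was at 138 and 141 CPM in control monolayers, 148 and 139 in knockout monolayers, 159.5 and 155 in control gels and 169 and 159 in knockout gels. Every gel library lay above every monolayer library. The rises were 0.18 in control cells (adjusted p = 0.00871) and 0.20 in knockout cells (adjusted p = 0.00241). The first call was lost with upper-quartile scaling and without control monolayer library 1 or control gel library 1. The second was lost without knockout monolayer library 2. With the knockout HSF1 differed by 0.04 in monolayers and 0.06 in gels (adjusted p = 0.656 and 0.427).

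The interaction compares the knockout effect in gels with that in monolayers, and 6 of the 39 genes passed its test. HSP90AA1, HSPH1, FKBP4 and HSPD1 had a more positive knockout effect in gels and BAG3 and HSPA1B a more negative one, against 2.67% of all tested genes more positive and 3.94% more negative. All 6 are heat shock genes, and 0 of the 22 ER genes passed by edgeR's adjusted p, where 4 had an unadjusted p under 0.05 and DESeq2's Wald test called 1. BAG3 differed by -0.40 ± 0.0694 (adjusted p = 0.000197), from 0.03 in monolayers to -0.37 in gels. HSP90AA1 differed by 0.30 ± 0.063 (adjusted p = 0.00201), from 0.04 to 0.34. HSPA1B differed by -0.35 ± 0.0789 (adjusted p = 0.00359), from 0.29 to -0.06.

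HSPH1 differed by 0.27 ± 0.0693 (adjusted p = 0.0114), FKBP4 by 0.24 ± 0.0752 (adjusted p = 0.0429) and HSPD1 by 0.20 ± 0.0626 (adjusted p = 0.0426). BAG3 held in all 14 alternatives. Without knockout gel library 2 no gene was called more positive, and the adjusted p was 0.0522 for HSP90AA1, 0.0792 for HSPH1, 0.253 for HSPD1 and 0.109 for FKBP4. HSPA1B was lost without control monolayer library 1 (adjusted p = 0.0735) and with the correction for exon length and GC content (adjusted p = 0.0811), and HSPH1 without control gel library 1 (adjusted p = 0.132). HSPD1 and FKBP4 were each lost in 7 alternatives, including without control monolayer library 2, knockout monolayer library 2 or either control gel library. The label difference in Cas9 between the control groups enters this comparison and cannot be told apart.

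**Figure D4:**
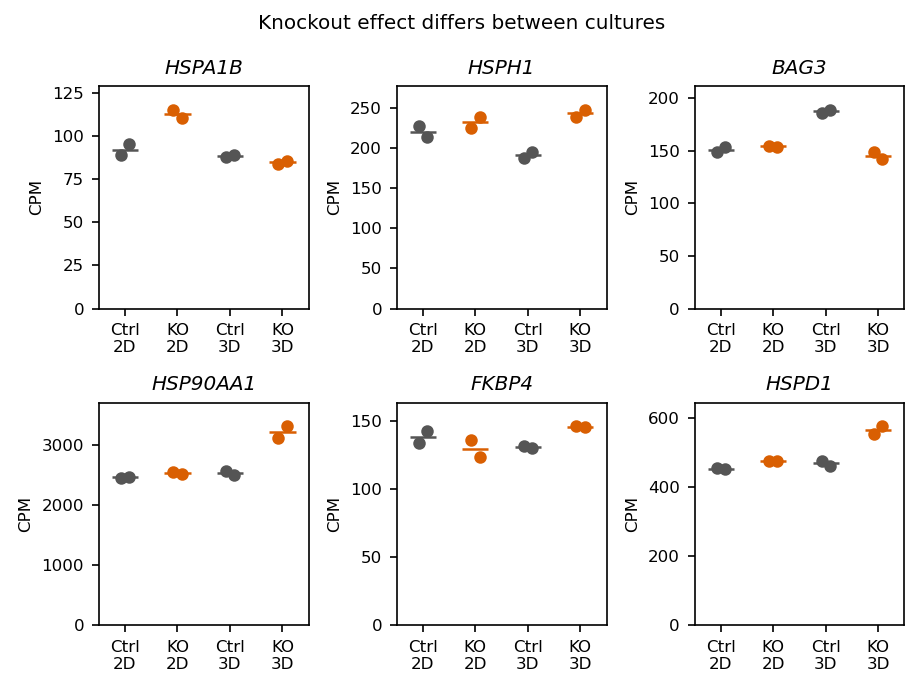
CPM (linear axis) of the 6 genes that passed the interaction test, in each of the 8 libraries by group, with points for libraries and lines for group means. HSP90AA1 and HSPD1 stand apart in the knockout gels, BAG3 in the control gels and HSPA1B in the knockout monolayers.

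Promoter motifs were then set beside the calls. All 6 genes with the heat shock element were higher in knockout than in control gels and 3 of them, SERPINH1, HSPA8 and DNAJA1, in knockout monolayers. Of all tested genes 11.5% were higher in knockout gels and 9.60% in knockout monolayers. The search took 1 exact pattern, and the other heat shock genes with a window held no match to it. Of those, HSPH1, HSPA4 and STIP1 were higher in knockout gels and DNAJB1 and BAG3 lower. HSPA1A, HSPA1B, HSPB1 and HSPE1 did not pass there. The stretch with the HSPD1 matches (chr2:197500038-197500090) lies inside the annotated HSPE1 gene, which starts at 197499994 on the other strand. That HSPE1 counts as without a match thus depends on where its window ends. Of 48 other tested genes with the same letters in a promoter window, 22.9% were higher and 12.5% lower in knockout gels, and 2.08% higher and 6.25% lower in knockout monolayers. The 7 genes with the ER stress element gave 0 higher and 1 lower call (HSP90B1) in knockout gels, and the 3 with ER stress element II gave 1 higher (HYOU1) and 1 lower (HERPUD1). Of all tested genes 11.5% were higher and 12.4% lower there, so the 1 lower call of 7 was near that share. Of 9 other tested genes with the ER stress element 0 were higher and 1 lower, and of 12 others with ER stress element II 2 and 2. DNAJB9, SYVN1 and DNAJA1, which hold the ETS core, all rose in knockout monolayers, where 9.63% of 1080 other tested genes with it rose and 5.46% fell. In knockout gels DNAJA1 alone of the 3 passed.

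Further genes of the same pathways were counted from lists. The cytosolic chaperonin TRiC, the ring that folds actin and tubulin, had 8 of 8 subunit genes higher in knockout than in control gels, by 0.12 (CCT8, adjusted p = 0.0497) to 0.26 (CCT3, adjusted p = 2.97e-05), and 1 of 8 (CCT3, 0.14, adjusted p = 0.029) in monolayers, beside 11.5% and 9.60% of all tested genes. CCT6A was at 475 and 494 CPM in control monolayers, 504 and 517 in knockout monolayers, 563 and 566 in control gels and 645 and 670 in knockout gels. From monolayers to gels 6 of 8 subunits rose in control and 8 of 8 in knockout cells, beside 16.0% and 20.1% of all tested genes, none was lower, and 0 passed the interaction test by edgeR's adjusted p or by DESeq2, with 4 at an unadjusted p under 0.05. The 8 calls in knockout against control gels were 4 without knockout gel library 2, and the 6 in control cells were 2 with upper-quartile scaling, while the 8 between knockout cultures held in every alternative.

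**Figure D5:**
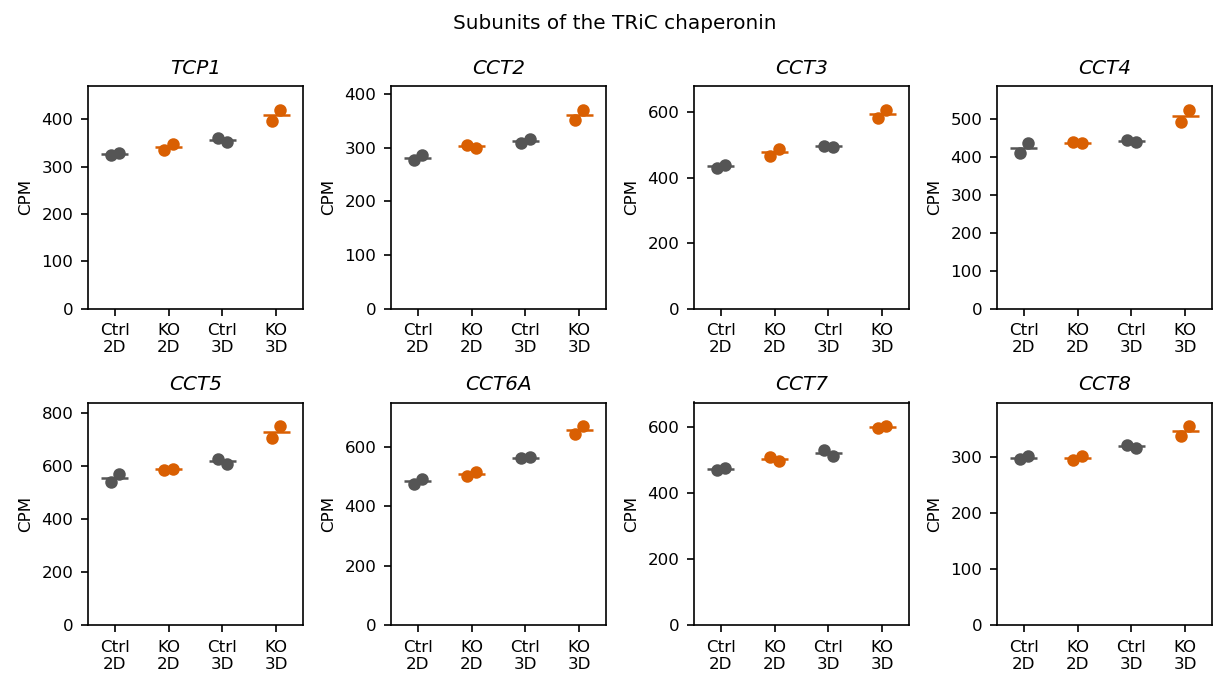
CPM (linear axis) of the 8 TRiC subunit genes in each of the 8 libraries by group, with points for libraries and lines for group means. The knockout gels have the highest mean in every panel.

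Other cytosolic heat shock genes counted 1 higher and 2 lower of 20 tested with the knockout in monolayers (9.60% and 9.60% of all tested genes) and 6 higher and 1 lower in gels (11.5% and 12.4%). The monolayer counts were near or below the share of all genes. FKBP5, an HSP90 cochaperone and glucocorticoid target, led them. It was at 77.5 and 83.0 CPM in control monolayers, 80.4 and 78.2 in knockout monolayers, 92.0 and 84.5 in control gels and 121 and 125 in knockout gels. It rose by 0.48 in knockout gels (adjusted p = 5.07e-08) and passed the interaction test at 0.49 (adjusted p = 0.00012). CHORDC1, another HSP90 cochaperone, rose by 0.33 (adjusted p = 0.000393).

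Mitochondrial chaperones and proteases counted 3 higher and 1 lower of 10 in knockout gels (11.5% and 12.4% of all tested genes), by DESeq2 2 and 0. In knockout monolayers 1 was higher (9.60%), by DESeq2 0. The single calls were near the share of all genes. HSPA9 (mortalin), the HSP70 of the matrix, rose by 0.23 in knockout gels (adjusted p = 0.000186) and by 0.40 from knockout monolayers to knockout gels (adjusted p = 9.38e-09). LONP1, the matrix protease, fell by 0.18 in knockout gels (adjusted p = 0.0119 by edgeR), a call that DESeq2 did not make.

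Among ER folding and oxidation genes 2 were higher and 2 lower of 15 tested with the knockout in monolayers (9.60% and 9.60% of all tested genes), and 2 higher and 1 lower in gels (11.5% and 12.4%), counts near the share of all genes. ERO1A, the oxidase that recharges disulfide isomerases, fell by 0.39 in knockout gels (adjusted p = 2.99e-07), where it stood at 233 and 246 CPM against 316 and 309 in control gels. Translocation and degradation genes counted 6 higher and 0 lower of 18 in knockout monolayers (9.60% and 9.60% of all tested genes), by DESeq2 4 and 0. They counted 4 higher and 1 lower in knockout gels (11.5% and 12.4%), by DESeq2 3 and 1. Control gels against control monolayers gave 9 higher and 0 lower (16.0% and 10.7%), by DESeq2 8 and 0. VCP, the ATPase that pulls proteins out of the ER, led the calls between the control cultures with a rise of 0.27 (adjusted p = 2.58e-05).

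Further UPR signalling genes counted 0 higher and 2 lower of 10 with the knockout in monolayers (9.60% and 9.60% of all tested genes), by DESeq2 0 and 1. In gels 1 was higher and 3 were lower (11.5% and 12.4%), the former near the share of all genes, and by DESeq2 0 and 1. CHAC1, a glutathione-degrading target of ATF4, fell by 0.81 in monolayers (adjusted p = 3.58e-05) and by 0.45 in gels (adjusted p = 0.00298). PPP1R15A (GADD34), which restores translation after stress, rose from 123 and 122 CPM in control monolayers to 298 and 302 in control gels and from 117 and 107 to 318 and 308 in knockout cells, by 1.29 and 1.48 (adjusted p = 1.1e-20 and 2.82e-22). ATF4, the factor above both genes, rose with gels by 0.31 in control cells (adjusted p = 2.28e-06) and by 0.28 in knockout cells (adjusted p = 6.75e-06). The immediate-early sum moved with these culture differences, and its part in them was not tested.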

How the data were processed

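RNA from 8 MDA-MB-231 libraries was sequenced from a stranded poly(A) kit, per the labels. The authors deposited raw read counts per gene symbol. Per the submitters' processing notes, FastQC 0.11.9, STAR 2.7.9a, the build hg38, featureCounts and R 4.1.1 were used. The annotation, strand setting and featureCounts version were not given in the sources used here, so counts of near-identical copies and overlapping genes are uncertain. Gene positions and exon lengths come from GENCODE on GRCh38, matched by symbol.

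Genes passing edgeR's filterByExpr (minimum count 10; 15568 of 61228, with 99.89% of counts) were normalised by the TMM method in edgeR 4.0.16 (R 4.3.3). The quasi-likelihood test (robust, two-sided, 4 residual degrees of freedom) was fitted on 4 group means over all 8 libraries. Benjamini-Hochberg adjustment ran over the 15568 genes, and an adjusted p under 0.05 was a call. Knockout was compared with control in each culture, gels with monolayers in each genotype, and the knockout effects of the 2 cultures with each other, which made 5 contrasts. The scripts were checked on simulated data.

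The genes, lists and naming rule were chosen with earlier results of these data known. All 40 genes are named; values are printed for those that passed, and from each further list up to 3 genes with the smallest adjusted p. No row lacked a gene name. The biological coefficient of variation was 4.03%. Replicate libraries differed by more than counting error (chi-squared per degree of freedom 2.48 to 6.03). Alternatives were DESeq2 1.42.0 and its size factors, upper-quartile scaling, no low-count filter, a threshold of 0.01, a fit on the compared groups alone, a replicate block, each library left out and, added after seeing the data, a correction for exon length and GC content.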

Additional observations from a re-analysis of the deposited data

Results flagged for a closer look

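The knockout effect differed between gels and monolayers, by the interaction term of edgeR's quasi-likelihood test, in 6 genes. BAG3 had a gel effect lower than its monolayer effect by a log2 difference of -0.399 (SE 0.0694, adjusted p = 0.000197), and HSPA1B by -0.354 (SE 0.0789, adjusted p = 0.00359). HSP90AA1 differed by 0.299 (SE 0.063, adjusted p = 0.00201), HSPH1 by 0.273 (SE 0.0693, adjusted p = 0.0114), FKBP4 by 0.244 (SE 0.0752, adjusted p = 0.0429) and HSPD1 by 0.203 (SE 0.0626, adjusted p = 0.0426). Groups of 2 libraries are too small for a check of single outlying libraries.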

How the results depend on the processing

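Counts of called genes are given as higher and lower, against 11 and 2 (knockout, monolayers), 14 and 5 (knockout, gels), 6 and 5 (gels, control cells), 13 and 7 (gels, knockout cells) and 4 and 2 (interaction). With any 1 library left out they ran from 5 to 11 and 1 to 4, 7 to 17 and 3 to 6, 1 to 9 and 1 to 5, 6 to 14 and 4 to 7, and 0 to 5 and 1 to 4. At a threshold of 0.01 the knockout in monolayers gave 7 and 1, gels in knockout cells 8 and 4, and the interaction 1 more positive. Upper-quartile scaling gave 3 and 7 for gels in control cells, 7 and 10 for gels in knockout cells and 2 more positive in the interaction. A correction for exon length and GC content gave 20 and 5 for the knockout in gels, 19 and 5 for gels in knockout cells, 9 and 5 for gels in control cells and 8 and 1 for the interaction. Under it, gels against monolayers in knockout cells turned to 0.16 for HSPB1 (adjusted p = 0.00521) and to 0.025 for SERPINH1 (adjusted p = 0.692). The cause was not tested. Of the calls, 14 were lost with upper-quartile scaling, 8 with DESeq2's Wald test, 6 without the low-count filter, 5 in fits of the compared groups alone and 24 without control gel library 1. DESeq2's Wald test gave 9 and 2, 12 and 5, 6 and 5, 11 and 6, and 4 and 2.

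No shift common to libraries of the same replicate number was seen, as the correlations of replicate deviations across groups ran from -0.063 to 0.082. This cannot show if such libraries were grown or processed together, which the labels do not say. With a replicate block the counts were 11 and 2, 14 and 5, 8 and 5, 13 and 7, and 4 and 2, and no call was lost. In groups of 2 libraries a change of the size seen in HSPE1 or SDF2L1, whose replicates differed by up to 17.4 and 15.1%, is measured less precisely than one in the abundant chaperones.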
